A study of Mus musculus with 108 samples.

Results

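Cells with a high level of G2 and mitosis transcripts were set against cells with a low level of them, within cultures of mouse germline stem cells. A score was computed for each cell as the mean of log2(RPM + 1) over 24 genes (RPM, the deposited unit of reads scaled to library size). Cells were chosen by this score alone: within each culture line they were ranked and split into 3 classes, G2/M-high at the top, G2/M-low at the bottom and a middle class that also took the remainder. This gave 35 high, 35 low and 37 middle cells. The high and the low class each held 9 of the 30 cells of line GSC1, 8 of 24 of GSC2, 10 of 30 of GSCLC1 and 8 of 24 of GSCLC4. One GSC1 cell was left out of the ranking by the rule; it had a score of 0.64 and 5748 detected genes.

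The study profiled single cells by SC3-seq, which reads the 3′ ends of polyadenylated RNA. GSC1 and GSC2 are germline stem cells (GSCs), cultured spermatogonial stem cells of the testis, and GSC2 was derived from testes of postnatal day 7 (P7) that were independent of the others. GSCLC1 and GSCLC4 are GSC-like cells, and GSCLC4 came from reconstituted testes held at 34°C for 3 weeks under what the labels call condition 1. All 4 lines had the background strain 129/SvJcl x C57BL/6 and grew in StemPro-34 SFM with GDNF, bFGF, LIF and EGF. The sources used here give no age for GSC1 and no culture condition for GSCLC1. Cells of 1 line are not replicates of a condition, so class means were taken within each line and the 4 lines were the replicates. Nothing in the labels says that the cells of a line came from more than 1 culture. Estimated depth was 2.00 to 6.04 M reads per cell, with a median of 3.45 M. Dazl and Ddx4, RNA-binding proteins that define germ cells, were detected in 35 of 35 cells of both classes.

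Cells copy their DNA in S phase, prepare for division in G2 and separate the copies in M phase. Cyclin B bound to the kinase CDK1 drives entry into mitosis, a spindle of microtubules and motor proteins moves the chromosomes, and the anaphase-promoting complex then marks cyclin B and securin for destruction. Many of the transcripts for these proteins build up through G2 and are lost after division, which is why their sum is used to rank cells. Germline stem cells in culture divide without synchrony, so a dish holds cells at each stage.

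The score genes chose the classes, and their values are a description with no test. The lowest scores were 2.13, 1.52, 2.60 and 1.10 in GSC1, GSC2, GSCLC1 and GSCLC4, and the highest were 7.84, 7.58, 7.77 and 8.61. At the lower boundary the last low cell and the first middle cell had scores of 3.64 and 4.16 in GSC1, and of 4.94 and 4.99 in GSC2. In GSCLC1 they were 4.54 and 4.55, and in GSCLC4 4.58 and 5.02. At the upper boundary the last middle cell and the first high cell had 6.17 and 6.36 in GSC1, and 6.32 and 6.50 in GSC2. They had 6.05 and 6.22 in GSCLC1, and 6.62 and 6.66 in GSCLC4. The classes are ranges of a graded score and not separate types, and the cells on either side of a boundary are close.

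**Figure D1:**
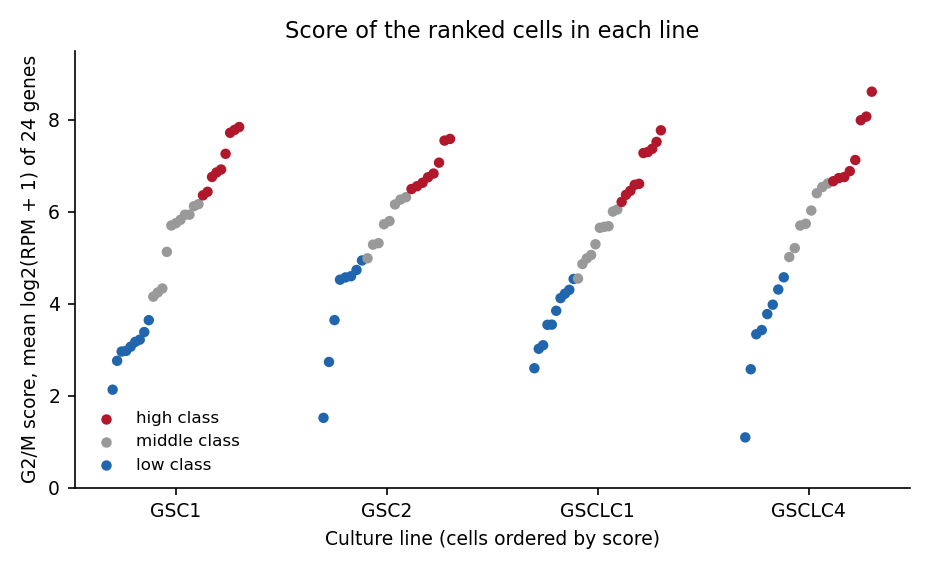
G2/M score (mean log2(RPM + 1) of 24 genes) of each ranked cell, ordered within its culture line; red points are the high class, grey the middle and blue the low class. Scores in GSCLC4 run from 1.10 to 8.61, where the lowest cell stands apart and the next has 2.58.

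Among the score genes, Mki67, the antigen of proliferating cells, had 287 ± 39.3 RPM in the high class and 8.72 ± 8.29 RPM in the low class (mean ± SD of 4 line means). Top2a, the topoisomerase that untangles replicated chromosomes, had 752 ± 119.3 RPM and 110.5 ± 62.5 RPM. In the middle class these had 113.6 and 524 RPM. Ccnb1 encodes cyclin B1 and had 785 ± 172.9 RPM against 144.2 ± 53.8 RPM. Its level is uncertain: 46.3% of the values it had above 0 were fractions of a read, as occurs when reads are divided between near-identical copies. Cdc20, the activator of the anaphase-promoting complex, had 273 ± 52.6 RPM against 54.3 ± 10.6 RPM, with 87.5 RPM in the middle class. Plk1, a kinase of mitotic entry and spindle assembly, had 83.7 ± 12.5 RPM against 14.0 ± 16.4 RPM. Cdc20, Plk1 and the spindle kinase Aurka were close to the low class in the middle class, while Top2a and Ccna2 were closer to the high class there. Aurka had 63.4, 10.2 and 8.51 RPM in the high, middle and low classes. Ccna2, which encodes the S and G2 phase cyclin A2, had 539, 363 and 107.6 RPM. Single low cells were not free of these transcripts: Ccnb1 reached 677 RPM and Cdc20 208 RPM in the low cell where each was highest.

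Promoters of G2/M genes are known for a short element, the cell cycle genes homology region (CHR), read by complexes that repress these genes in resting cells and activate them with B-MYB and FOXM1 before division. It is often accompanied by CCAAT boxes, bound by NF-Y. The windows below are the 60 bases before the annotated start, 5′ to 3′ on the gene's strand, from RefSeq (GRCm38.p6, the assembly of mm10). They were chosen because they hold CHR letters, to show the element, and are not typical of the genes described here: within the 50 bases next to the start, CHR letters were found in 5 of 20 promoters of score genes and in 7 of 36 promoters of genes higher past the threshold below. Cdc20, Top2a, Cdk1 and Ube2c are score genes, while Espl1, Hmgb2 and Fam83d were outside the score and passed the test below. Capitals mark CHR letters (TTTGAA or TTCGAA, either strand) and CCAAT (either strand).
Cdc20: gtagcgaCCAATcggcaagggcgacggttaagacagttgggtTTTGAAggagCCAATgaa
Top2a: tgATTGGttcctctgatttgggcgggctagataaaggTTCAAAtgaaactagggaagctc
Cdk1: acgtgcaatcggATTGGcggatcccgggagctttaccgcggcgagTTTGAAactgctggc
Ube2c: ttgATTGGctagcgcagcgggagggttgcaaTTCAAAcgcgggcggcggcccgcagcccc
Espl1: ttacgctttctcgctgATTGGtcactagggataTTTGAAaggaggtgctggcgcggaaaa
Hmgb2: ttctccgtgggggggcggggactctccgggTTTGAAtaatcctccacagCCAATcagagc
Fam83d: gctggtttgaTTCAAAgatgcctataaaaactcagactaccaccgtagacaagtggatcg
These windows lie at chr4:118437344-118437403 (minus strand), chr11:99024190-99024249 (minus), chr10:69352913-69352972 (minus), chr2:164769869-164769928 (plus), chr15:102296233-102296292 (plus), chr8:57511783-57511842 (plus) and chr2:158768039-158768098 (plus). The first 6 hold CHR letters and at least 1 CCAAT within the 60 bases, and Fam83d holds CHR letters only.

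Over the 250 bases before the start, CHR letters were present for 8 of 20 score genes with a promoter in the table (40.0%) and for 33 of 88 other G2/M genes (37.5%). They were present for 7 of 46 S phase genes (15.2%) and for 1154 of all 8240 tested genes with a promoter (14.005%). Of the 34 genes with a promoter that were higher past the threshold below, 17 held CHR letters (50.0%). Where a gene has several starts, a match at any of them was counted; per promoter the share over all tested genes was 11.8%. In the 50 bases next to the start, 18.8% of promoters of the other G2/M genes and 1.62% of all promoters of tested genes held them. CCAAT was found for 18 of 20 score genes (90.0%), 50 of 88 other G2/M genes (56.8%), 30 of 46 S phase genes (65.2%) and 41.95% of tested genes. Letters of an E2F site (TTTCCCGC, TTTGGCGC, TTTGCCGC or TTTCGCGC, either strand) were found for 11 of 46 S phase genes (23.9%), 8 of 88 other G2/M genes (9.09%) and 4.39% of tested genes. The searched window was the same for all genes, but the set of genes higher past the threshold was chosen by expression. The searches for the 3 motifs are separate and can overlap. A match is a string of letters and not a shown binding site.

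Nearly all genes outside the score that passed the test were higher in the high cells, and 21 of these 48 were on a list of other G2/M genes. Of 10495 tested genes, 48 were higher (0.457%) and 2 lower (0.0191%) at an adjusted p under 0.05 (limma with line as a block, Benjamini-Hochberg adjustment over all tested genes). At an unadjusted p under 0.05, 658 were higher (6.27%) and 447 lower (4.26%). A list of other G2/M genes, split by role below, had 104 tested members, and 2 more were below the filter. Of these, 21 were higher (20.2%) and none lower past the threshold, and 66 were higher and 2 lower at an unadjusted p under 0.05. In 62 of the 104 (59.6%) the high class was above the low class in 4 of 4 lines, against 10.0% of all tested genes, and in 1 it was below in 4 of 4, against 8.87%. A positive difference was found in 93 of the 104 and in 5523 of all 10495 tested genes. The median log2 difference over the 104 was 1.19, and 0.04 over all tested genes. Among single lines it was largest in GSCLC4 at 1.69, with 1.23 in GSC1, 0.83 in GSC2 and 0.59 in GSCLC1. Most listed G2/M genes that did not choose the cells thus went in the direction of the class label. The list was chosen with earlier results of these data known, so this describes the classes and is no independent check of the label. All differences are on the log2(mean RPM + 1) scale, which understates changes of low genes. The tested genes and the score came from the same libraries, so a gene that varies with the score genes from cell to cell differs between the classes.

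These calls depended on the variance model and on single lines. No gene passed in either direction when all 19707 genes above 0 were tested without a filter (1230 at an unadjusted p under 0.05), or when the mean-variance trend was left out (959 at an unadjusted p under 0.05). Without GSC1, GSCLC1 or GSCLC4 in turn, 8, 19 and 9 genes were higher past the threshold, and 36 without GSC2. By the serial numbers in their titles, GSC1 cells fall in 2 separate runs of numbers, one under 129 and one from 129 on; the labels do not say what a run is. With the cells of the lower run only, 2 genes were higher past the threshold, and with the upper run only 10. The called genes were higher or lower in the same direction in each of these fits.

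The list of spindle motors and spindle proteins had the largest share of members past the threshold of any list (31.03%). Next came the list for chromosome condensation and sister chromatid release, at 23.53%. This order can depend on how the lists were filled. The called spindle members include Hmgb2, Kpna2 and Arl6ip1, described below as a chromatin protein, an importin and a membrane protein. Of the 29 tested members of the spindle list, 9 were higher past the threshold and none lower. A positive difference was found in 28, and the median log2 difference was 1.78. By level, 28 of the 29 were highest in the high class, against 34.0% of all tested genes. Kif4 (chrX:100626065-100727271), a kinesin that binds chromosome arms, had line means of 76.95, 90.5, 104 and 67.8 RPM in the high cells of GSC1, GSC2, GSCLC1 and GSCLC4, and 6.80, 0.219, 9.52 and 13.7 RPM in the low cells. Every high line mean was above every low one (log2 3.77 ± 0.62 SE, limma adjusted p = 0.0217). Over single cells the lowest, median and highest values were 0.316, 66.95 and 318 RPM in the high class and 0, 0.280 and 59.9 RPM in the low class, so single cells overlapped. Prc1 (chr7:80294445-80316259), which bundles the antiparallel microtubules of the anaphase midzone, had 57.9, 66.2, 67.9 and 94.2 RPM in the high cells by line and 3.84, 19.8, 0.450 and 5.81 RPM in the low cells (log2 3.67 ± 0.63, limma adjusted p = 0.0228). It was detected in 33 of 35 high and 14 of 35 low cells, and the GSC2 low mean was the nearest to the high class.

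Tubb4b (chr2:25222158-25224702), a beta-tubulin of the microtubules themselves, had 1039, 1043, 953 and 867 RPM in the high cells by line and 359, 388, 384 and 173.2 RPM in the low cells. It had the smallest adjusted p of the named genes (log2 1.65 ± 0.17, limma adjusted p = 0.00124), and its lines lay close together within each class except for a lower GSCLC4 low mean. Hmgb2 (chr8:57511843-57515999), a chromatin protein that bends DNA and stood on the same list, had 144.2, 328, 277 and 472 RPM against 45.3, 76.1, 82.2 and 80.2 RPM (log2 2.01 ± 0.23, limma adjusted p = 0.00160). The high means differed more than 3-fold among lines, with GSC1 lowest and GSCLC4 highest, and none reached down to the low means. Kpna2, the importin that holds the spindle factor TPX2 inactive, had 1072, 907, 1224 and 1255 RPM against 466, 456, 427 and 612 RPM (log2 1.19 ± 0.14, limma adjusted p = 0.00160). Arl6ip1, a membrane protein that shapes the endoplasmic reticulum, rose by 1.57 ± 0.21 on the log2 scale (limma adjusted p = 0.00362). Kif2c, a kinesin that takes apart microtubule ends, rose by 2.63, Troap, which binds spindle microtubules, by 3.34, and Racgap1, which forms the central spindle with the kinesin Kif23, by 1.20 on the log2 scale. Tubb4b, Hmgb2, Kpna2, Arl6ip1 and Racgap1 were named after their values were seen.

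**Figure D2:**
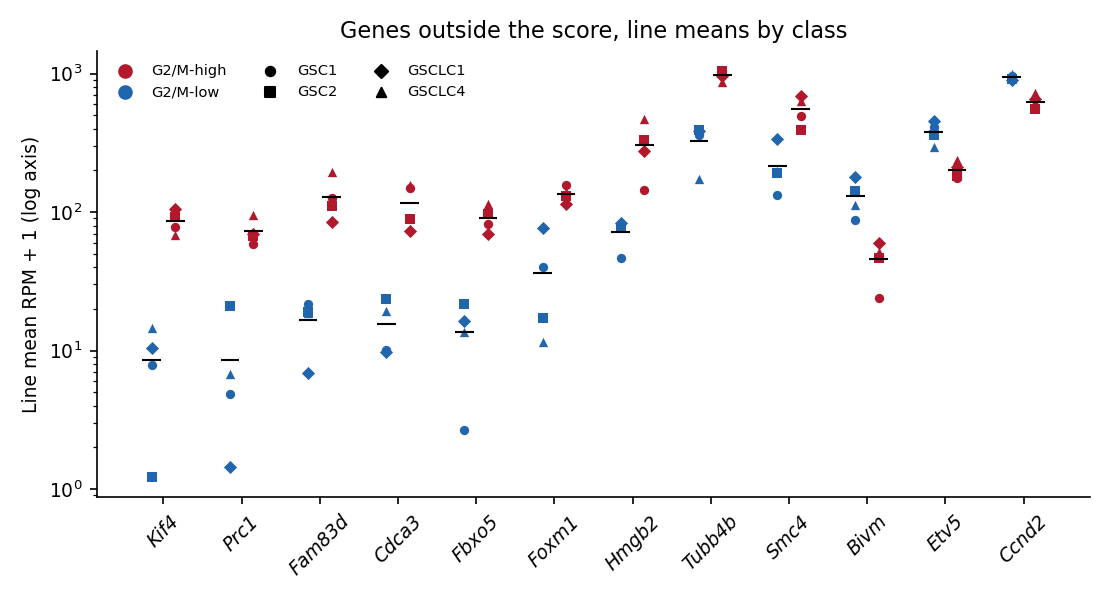
Mean RPM + 1 (log axis) of 12 genes outside the score in G2/M-low (blue) and G2/M-high (red) cells; each symbol is the mean over the cells of 1 culture line and black bars are means of the 4 lines. For Kif4 and Fam83d the red symbols lie well above the blue, and for Bivm, Etv5 and Ccnd2 they lie below; Etv5 and Ccnd2 did not pass the test.

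Kinases of mitosis shared the direction with fewer calls. Of 14 tested kinases and phosphatases outside the score, 3 were higher past the threshold, 13 had a positive difference, and the median was 1.36. Ttk, the kinase that starts the spindle checkpoint, had 137.1, 209.8, 139 and 194 RPM in the high cells by line and 27.3, 45.6, 111.3 and 34.9 RPM in the low cells (log2 1.81 ± 0.34, limma adjusted p = 0.0329). The difference was small in GSCLC1, whose low cells were the highest of the low means. Wee1, which restrains CDK1 until mitosis, had 347, 208, 285 and 368 RPM against 91.8, 171.8, 98.4 and 97.9 RPM (log2 1.402 ± 0.26, limma adjusted p = 0.0308), with 235, 287, 365 and 399 RPM in the middle class. Wee1 in the middle cells was thus at or above the high cells in GSC2, GSCLC1 and GSCLC4. Pbk, a kinase active in mitosis and named after its values were seen, rose by 1.396 on the log2 scale. Nek2, a centrosome kinase, had 65.2 ± 15.7 RPM against 15.2 ± 11.6 RPM and did not pass (limma adjusted p = 0.0727).

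Kinetochore genes were higher in most cases but seldom past the threshold. Of 28 tested kinetochore and spindle checkpoint genes, 2 were higher past the threshold, 25 had a positive difference, and the median was 1.04. Both called members, Incenp and Cdca8 (borealin), belong to the chromosomal passenger complex, which corrects faulty attachments of chromosomes with the kinase Aurkb. Incenp had 237, 139, 200.04 and 234 RPM in the high cells and 42.2, 104, 81.8 and 27.5 RPM in the low cells (log2 1.80 ± 0.36, limma adjusted p = 0.0445). Cdca8, named after its values were seen, had 320.1, 240.2, 362 and 369 RPM against 143.1, 168.9, 134 and 129.9 RPM (log2 1.15 ± 0.21, limma adjusted p = 0.0308). Casc5, the scaffold of the outer kinetochore also called Knl1, had 57.7 ± 10.7 RPM against 12.5 ± 9.94 RPM without passing (limma adjusted p = 0.0838). Cenpl, of the inner kinetochore, had 47.8 ± 6.63 RPM against 10.2 ± 11.8 RPM (limma adjusted p = 0.104).

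Proteins that condense chromosomes and release sister chromatids had 4 of 17 tested members higher past the threshold, all 17 with a positive difference and a median of 1.05. Cdca3 (chr6:124829530-124833701), a trigger of mitotic entry, had 148.9, 87.9, 72.1 and 155.2 RPM in the high cells and 9.09, 22.4, 8.80 and 18.3 RPM in the low cells (log2 2.93 ± 0.41, limma adjusted p = 0.00579). Its middle cells, at 101.2, 135, 118.7 and 139 RPM, were above the high cells in GSC2 and GSCLC1. Smc4, a core subunit of condensin, had 493, 391, 694 and 635 RPM against 131.8, 192, 336 and 196 RPM (log2 1.41 ± 0.19, limma adjusted p = 0.00362). The GSCLC1 low mean of Smc4 came near the GSC2 high mean, but within each line the high cells were above. Espl1 encodes separase, the protease that cuts cohesin, and had 179.6, 173.2, 157.6 and 152 RPM against 41.5, 84.4, 51.0 and 15.3 RPM (log2 1.99 ± 0.34, limma adjusted p = 0.0228); its promoter is among those printed above. Cdca2, which brings a phosphatase to chromatin, rose by 2.09 on the log2 scale. Ncapg, another condensin subunit, had 76.04 ± 26.0 RPM against 26.0 ± 15.4 RPM and did not pass (limma adjusted p = 0.177).

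The anaphase-promoting complex was divided. Of 16 tested members and partners, 3 were higher past the threshold, 10 had a positive difference and 5 were higher in 4 of 4 lines (31.2%). Over all 10495 tested genes, 5523 had a positive difference and 10.0% were higher in 4 of 4 lines. The median difference was 0.15, the smallest of the G2/M lists. The median summed RPM of the list in GSC1, GSC2, GSCLC1 and GSCLC4 was 2138, 2201, 1959.8 and 2094 in the high and 1712, 1699, 1868 and 1519 in the low class, higher in 4 of 4 lines. This sum includes the 3 called members. The median log2 difference of the members by line was 0.028, 0.28, -0.031 and 0.34. Fbxo5 (chr10:5799158-5805465), also called Emi1, which inhibits the complex in S and G2 phase, had 81.7, 96.6, 68.4 and 113.1 RPM in the high cells and 1.66, 20.7, 15.4 and 12.6 RPM in the low cells (log2 3.07 ± 0.52, limma adjusted p = 0.0228). Its level is uncertain, as 35.2% of the values above 0 were fractions of a read. Ube2s, the enzyme that extends ubiquitin chains for the complex, had 246, 156.2, 143.9 and 164.1 RPM against 59.1, 74.1, 54.0 and 47.0 RPM (log2 1.57 ± 0.26, limma adjusted p = 0.0220). The subunit Cdc23 had 361, 268, 248 and 299.8 RPM against 101.2, 178, 152 and 63.3 RPM (log2 1.33 ± 0.27, limma adjusted p = 0.0449). The called members were thus an inhibitor, an enzyme partner and a subunit. The small subunit Cdc26 had the opposite sign, with 30.8 ± 10.3 RPM against 73.4 ± 28.1 RPM and lower values in 4 of 4 lines, and did not pass (limma adjusted p = 0.229).

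Among 17 tested transcription regulators of the cell cycle, Foxm1 alone passed. Foxm1 (chr6:128362994-128375886), the activator of G2/M promoters, had 155.5, 129.2, 114.2 and 139 RPM in the high cells and 39.3, 16.1, 75.3 and 10.5 RPM in the low cells by line (log2 2.27 ± 0.43, limma adjusted p = 0.0308). Each high line mean was above each low one, and the difference was smallest in GSCLC1. In the middle class it had 35.5, 65.04, 68.3 and 128.8 RPM, near the low cells in GSC1 and GSCLC1 and near the high cells in GSCLC4. Mybl2, which encodes B-MYB, had 15.5, 21.7, 48.8 and 29.2 RPM against 17.3, 4.73, 40.1 and 12.8 RPM without passing (limma adjusted p = 0.633), and its line means overlapped. E2f8, a repressor of E2F targets, had 26.1 ± 15.9 RPM against 5.59 ± 7.89 RPM (limma adjusted p = 0.314). Over the list the median was 0.46, and 11 of 17 were highest in the middle class.

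Of the 48 genes higher past the threshold, 21 were on none of the lists. The named ones of these are the 12 with the largest rise among those with at least 20 RPM in the high class. Fam83d (chr2:158768099-158786637), which recruits casein kinase 1 to the spindle, had 126, 110.2, 84.0 and 192 RPM in the high cells by line and 20.8, 18.1, 5.84 and 17.6 RPM in the low cells (log2 3.03 ± 0.38, limma adjusted p = 0.00240). It was detected in 34 of 35 high cells and 17 of 35 low cells, and its middle class had 55.3, 53.5, 45.1 and 64.1 RPM, between the classes in each line. Gbp2, an interferon-inducible GTPase, had 249, 81.5, 64.5 and 85.3 RPM against 58.0, 8.02, 18.3 and 17.6 RPM (log2 2.31 ± 0.37, limma adjusted p = 0.0186). The GSC1 high mean of Gbp2 stood above the rest, and 27 high and 22 low cells had any signal. Rbm44, an RNA-binding protein of germ cells, had 234, 246, 267 and 262 RPM against 124, 74.5, 93.9 and 42.97 RPM (log2 1.67 ± 0.27, limma adjusted p = 0.0172).

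Several of these 12 act on DNA or chromatin. Neil3, a glycosylase that repairs crosslinks, rose by 3.43 on the log2 scale, from low means of 0.244, 14.3, 54.5 and 5.41 RPM. Esco2, the enzyme that acetylates cohesin in S phase, rose by 2.37, and 2810417H13Rik, now named Pclaf, a partner of the replication clamp PCNA, by 3.28. Ezh2, the enzyme that methylates histone H3 at lysine 27, had 155.2, 232, 257 and 226 RPM against 42.8, 150.6, 86.3 and 90.5 RPM (log2 1.33 ± 0.25, limma adjusted p = 0.0308). For Neil3, Esco2 and 2810417H13Rik the middle class was as high as the high class in at least some lines, with Esco2 at 205, 161.2, 90.1 and 227 RPM there and 176.2, 192, 166.8 and 213 RPM in the high cells. Trim59, a RING-finger protein, rose by 2.67, and Lcorl, a transcription regulator, by 1.92. The alpha-tubulins Tuba1b, Tuba3a and Tuba3b rose by 1.70, 1.66 and 1.71. Their values are uncertain because they are near-identical, and 91.7%, 50.9% and 51.4% of their values were fractions of a read.

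The other 9 called genes on no list, named after their values were seen, had smaller differences. Tubb5, another beta-tubulin, had 1349, 1177, 1314 and 1508 RPM against 574, 711, 789.9 and 878 RPM (log2 0.87 ± 0.13, limma adjusted p = 0.0102). Rad21, the cohesin subunit cut by separase, had 803, 681, 898 and 1023 RPM against 330.2, 449.7, 633 and 637 RPM (log2 0.77 ± 0.15, limma adjusted p = 0.0449), and the GSC lines' high means lay near the GSCLC lines' low means. Stmn1, which destabilises microtubules, rose by 0.91, Gpsm2, which orients the spindle, by 1.31, Lbr, the lamin B receptor of the nuclear envelope, by 1.05, and Dek, a chromatin protein, by 0.91. Hmgn2, a nucleosome-binding protein, rose by 1.17 and the predicted genes Gm8203 and Gm19693 by 0.70 and 0.70. Of the values above 0 of these last 3 genes, 44.4%, 47.2% and 50.0% were fractions of a read, so their levels are uncertain too. In the high cells by line Gm8203 had 543, 841, 855 and 786 RPM and Gm19693 had 563, 849, 895 and 784 RPM. With levels this alike, they may not be 2 separate calls.

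S phase genes were highest in the middle class. All 60 listed replication genes were tested; 3 were higher in the high than in the low cells past the threshold, 57 had a positive difference, and the median was 0.64. By the mean level over lines, 52 of 60 were highest in the middle class, 8 in the high class and none in the low class, while 28.9% of all tested genes were highest in the middle. The median summed RPM of the list in GSC1, GSC2, GSCLC1 and GSCLC4 was 6582, 7761, 9748 and 5372 in the low class, 13420.0, 13900.0, 12551 and 13704 in the middle and 7068, 12139, 10165 and 9815 in the high class. The middle class was highest in each line, and the high and low classes of GSC1 and of GSCLC1 were close. The middle class was not tested.

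Prim1, the catalytic subunit of primase, had 185.2, 220.1, 116.5 and 242 RPM in the high cells and 91.2, 44.3, 72.2 and 34.6 RPM in the low cells (log2 1.69 ± 0.33, limma adjusted p = 0.0411), with 234, 224, 202 and 303 RPM in the middle class. Usp1, a deubiquitinase of DNA repair, had 174.5, 279.7, 323 and 340.4 RPM against 61.9, 149.6, 150.7 and 115.5 RPM (log2 1.26 ± 0.21, limma adjusted p = 0.0220). Rrm1, the large subunit of ribonucleotide reductase, named after its values were seen, had 428, 434, 514 and 418 RPM, 575, 609, 556 and 574 RPM and 199, 255, 289 and 116.9 RPM in the high, middle and low classes (log2 1.13 ± 0.20 for high minus low, limma adjusted p = 0.0247). In each line the middle class of Rrm1 was the highest and the low class the lowest. Pcna, the replication clamp, had 357, 809.6, 429.6 and 666 RPM against 333, 481, 263 and 295 RPM and 715, 789.6, 805 and 750.4 RPM in the middle class; high against low did not pass (limma adjusted p = 0.143). Gmnn encodes geminin, which blocks a second round of replication, and had 167.3 ± 38.9 RPM against 75.7 ± 39.6 RPM without passing (limma adjusted p = 0.0986).

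Replication histone genes, which are transcribed in S phase and mostly lack a poly(A) tail, gave low signal in this poly(A)-primed assay. Only 18 of 48 listed passed the filter. In the high cells 15 of these 18 (83.3%) were above the low cells in 4 of 4 lines, and the median was 2.26, but only Hist1h2ao passed the threshold. By the mean level over lines all 18 were highest in the middle class. The median summed RPM of the list was 89.0, 139.6, 71.1 and 49.1 in the low, 701, 816, 315 and 714 in the middle and 293, 520.0, 447 and 427 in the high class of GSC1, GSC2, GSCLC1 and GSCLC4. GSCLC1 departed from the other lines, since its high class was above its middle class. Hist1h2ao rose by 2.44 on the log2 scale (limma adjusted p = 0.0477), and 92.6% of the values above 0 were fractions of a read, so it cannot be told from its near-identical copies.

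**Figure D3:**
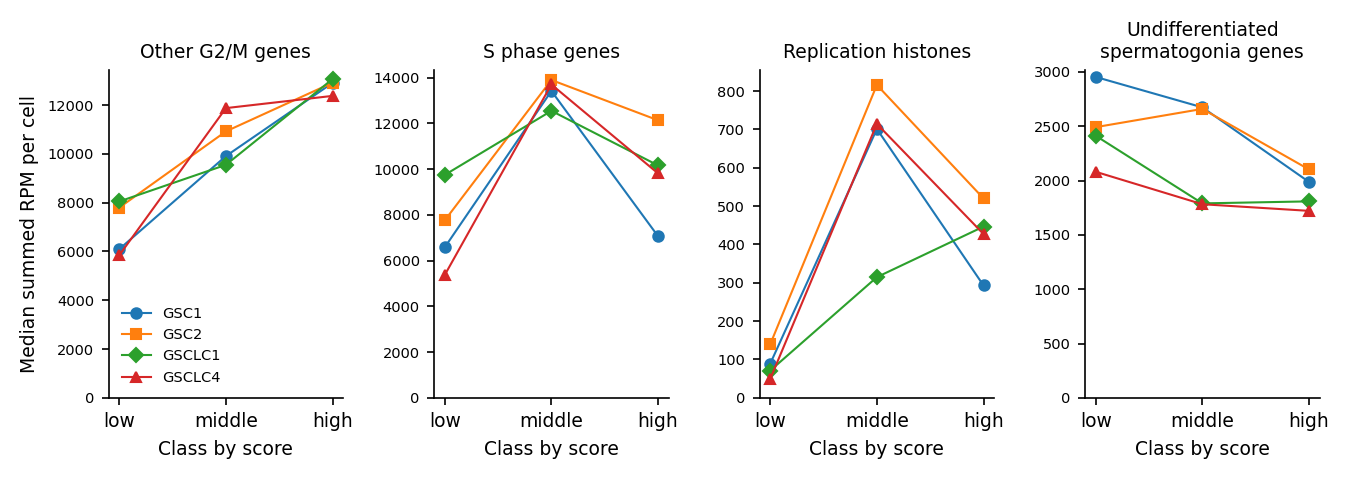
Median over cells of the summed RPM of 4 gene lists in the low, middle and high class of the score; each line with symbols is 1 culture line. The other G2/M genes climb from low to high, S phase genes peak in the middle class of all 4 lines, and replication histones peak there in 3 of 4.

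Genes of the G1 phase and of cell cycle arrest showed no shared direction. None of 15 tested G1 cyclins and CDK inhibitors passed, with 2 higher and 2 lower at an unadjusted p under 0.05 (limma) and a median of 0.33; with spike-in scaling 1 was higher past the threshold. Ccnd2, a D-type cyclin of G1, had 572, 557, 655 and 720.3 RPM in the high cells and 953, 908, 902 and 987 RPM in the low cells. Every high line mean was below every low one, but the test did not pass (log2 -0.59 ± 0.13, limma adjusted p = 0.0784), and with spike-in scaling the log2 difference was -0.030. Ccnd1 had 113.96 ± 31.5 RPM against 109.5 ± 63.1 RPM, and Ccnd3 had 9.28 ± 6.02 RPM against 11.1 ± 4.86 RPM. Ccne1, cyclin E1 of S phase entry, had 39.2 ± 22.1 RPM against 16.6 ± 7.02 RPM (limma adjusted p = 0.515). Ccng2, an atypical cyclin tied to arrest, had 40.998 ± 10.1 RPM against 11.6 ± 6.09 RPM, above in 4 of 4 lines, and did not pass (limma adjusted p = 0.201). The CDK inhibitor Cdkn1a had 36.8 ± 26.6 RPM against 46.2 ± 35.8 RPM, with line means that overlapped. Cdkn1b and Ccne2 were below the filter.

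Genes of undifferentiated spermatogonia had mostly negative differences, none past the threshold. Of 25 tested, 6 had a positive difference, 10 were lower and 2 higher at an unadjusted p under 0.05 (limma), and the median was -0.49. With spike-in scaling, which shifted the median of all tested genes to 0.46, the list's median was -0.21 and 12 of 25 were positive. Over all tested genes 8278 of 10495 were positive with this scaling. Of the list, 2 were then higher past the threshold, as were 4.46% of all tested genes. Gfra1 and Ret form the receptor for GDNF, the growth factor that maintains these cells in culture. Gfra1 had 101.3, 198, 191 and 212 RPM in the high cells and 325, 225, 339 and 290.0 RPM in the low cells (log2 -0.78 ± 0.23, limma adjusted p = 0.213). Etv5, which GDNF signalling switches on, had 174.8, 182.4, 211 and 236 RPM against 413, 357, 457 and 294 RPM (log2 -0.91 ± 0.19, limma adjusted p = 0.0613). For Etv5 every high line mean was below every low one, and the middle class, at 274, 299, 288 and 357 RPM, lay between the classes in GSC1, GSC2 and GSCLC1. Ret had 114.5 ± 20.7 RPM against 132.7 ± 33.7 RPM and Zbtb16, a transcription factor of spermatogonial stem cells, 53.5 ± 6.997 RPM against 89.6 ± 41.8 RPM. Id4, a marker of stem cells in the testis, had 31.9 ± 22.8 RPM against 23.1 ± 8.52 RPM. Nanos2, an RNA-binding protein that maintains the stem cell state, was detected in 3 of 35 high and 10 of 35 low cells (limma adjusted p = 0.404). Gfra1, Etv5, Ret, Zbtb16 and Id4 each had a signal in most cells of both classes, so both classes held these markers.

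Among other germ cell genes, a meiosis gene passed the test and the RNA-binding proteins Dazl and Ddx4 did not. Dazl had 3541 ± 439 RPM in the high and 3299 ± 165.04 RPM in the low class (limma adjusted p = 0.784). Ddx4 had 815 ± 35.3 RPM against 1019 ± 165.8 RPM (limma adjusted p = 0.400), lower in 4 of 4 lines by RPM and with a positive difference under spike-in scaling. Kit, the receptor that marks differentiating spermatogonia, had 18.8 ± 8.79 RPM against 8.07 ± 7.01 RPM (limma adjusted p = 0.487). Dnd1, an RNA-binding partner of NANOS proteins, had 91.2, 72.5, 48.9 and 65.9 RPM against 149.7, 114.3, 158.2 and 114.5 RPM (limma adjusted p = 0.190). Of 20 tested meiosis genes, 1 was higher past the threshold and 15 had a positive difference, with a median of 0.34. Their median summed RPM by line was 2139.7, 2578, 2638 and 2441 in the high and 1992, 1976, 1686 and 1974 in the low class, higher in 4 of 4 lines. This sum includes the called gene. The median log2 difference of the members in GSC1, GSC2, GSCLC1 and GSCLC4 was 0.0026, 0.56, 0.42 and 0.29, so near 0 in GSC1. The called gene, Smc1b, a cohesin subunit of meiotic cells named after its values were seen, had 464, 546, 626 and 394 RPM against 215, 332, 311 and 280.2 RPM (log2 0.83 ± 0.17, limma adjusted p = 0.0449). Rec8, the meiotic counterpart of Rad21, had 6.18, 3.26, 2.35 and 7.73 RPM against 22.3, 8.07, 39.2 and 67.3 RPM, below in 4 of 4 lines, and did not pass (log2 -2.34 ± 0.68, limma adjusted p = 0.197).

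The 2 genes lower past the threshold were Bivm and Slc35f2. Bivm (chr1:44118957-44144771), a gene of little known function, had 23.1, 45.8, 58.6 and 50.7 RPM in the high cells by line and 86.3, 141.9, 178 and 112 RPM in the low cells (log2 -1.55 ± 0.29, limma adjusted p = 0.0308). It was detected in 27 of 35 high and 34 of 35 low cells. Slc35f2 (chr9:53771433-53818161), a membrane transporter, had 61.6, 76.8, 27.1 and 47.3 RPM against 150.9, 211, 65.01 and 119.6 RPM (log2 -1.32 ± 0.27, limma adjusted p = 0.0477). For Slc35f2 the GSCLC1 low mean fell among the high means of other lines, so the difference was within lines, near -1.32 in each. Bivm passed in 5 of 18 alternative settings and Slc35f2 in 4; with spike-in scaling Bivm passed and Slc35f2 did not (log2 -0.81, limma adjusted p = 0.106). All other genes with large falls missed the threshold: Tbc1d16, which acts on Rab GTPases, had 15.7 ± 16.3 RPM against 66.8 ± 38.2 RPM (limma adjusted p = 0.0891), and the receptor Notch1 3.50 ± 3.70 RPM against 23.9 ± 9.30 RPM (limma adjusted p = 0.199). Dppa4, a chromatin protein of pluripotent and germ cells, had 31.99 ± 21.97 RPM against 82.5 ± 21.2 RPM (limma adjusted p = 0.214). Egr1, an immediate early gene, had 104, 87.2, 79.4 and 129.4 RPM against 389.7, 320.0, 90.0 and 203 RPM (limma adjusted p = 0.120). Its list of immediate early and heat shock genes did not share this sign: none of 15 tested passed, 10 had a positive difference, and the median was 0.26.

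Ribosomal protein transcripts were a slightly smaller share of the RNA in high cells, mainly in GSC2 and GSCLC4. None of 40 tested genes passed, and 13 were lower at an unadjusted p under 0.05 (limma). All 40 had a negative difference, with a median of -0.20. The list's median was -0.29 in GSC2 and -0.42 in GSCLC4. In GSC1 and GSCLC1 it was -0.020 and -0.028, near that of all tested genes (-0.019 and -0.035). Of the 40, 16 were lower in 4 of 4 lines (40%), against 8.87% of all tested genes. With spike-in scaling the list's median was 0.26 and 39 of 40 were positive. That scaling raised the median of all tested genes to 0.46, with 8278 of 10495 positive, and the list's median stayed below it. Rplp0, of the ribosomal stalk, had 3586, 3839, 4573 and 3104 RPM against 4776, 4840.1, 5080.3 and 4259 RPM (limma adjusted p = 0.149), and its difference also turned positive with spike-in scaling. Rps4x, of the small subunit, had 609, 283, 246 and 284 RPM against 518, 532, 719 and 1036 RPM, with GSC1 in the other direction (limma adjusted p = 0.116).

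Spike-in RNA took a smaller share of the reads in high cells. Where the same amount of synthetic RNA is added to each cell, its RPM falls as the cell's own RNA rises; the sources used here do not give the amount. The line medians in GSC1, GSC2, GSCLC1 and GSCLC4 were 30400.0, 32040.0, 35351 and 32904 RPM in the high cells and 56486, 33485, 49692 and 34480.0 RPM in the low cells. The high cells were lower in 4 of 4 lines (two-sided exact sign-flip permutation test over lines, p = 0.125, the smallest that 4 lines allow; adjusted p = 0.375 over 3 cell measures). By medians the gap was large in GSC1 and GSCLC1 and small in GSC2 and GSCLC4. By means over cells, high minus low was -18012, -7614, -17483 and -4332 RPM in GSC1, GSC2, GSCLC1 and GSCLC4. The middle class had 42079, 34860.0, 42622 and 34172 RPM. With each cell scaled to equal spike-in RPM, 468 of 10495 tested genes were higher (4.46%) and 2 lower (0.0191%), of which Bivm was one and Slc35f2 was not, and 57 of 104 other G2/M genes were higher. Detected genes had line medians of 8771, 9393, 9011 and 10044 in high and 8819, 8684, 8416 and 9978 in low cells (higher in 3 of 4 lines, exact permutation p = 0.25, adjusted p = 0.375). Estimated depth was 3.87, 4.06, 3.34 and 3.04 M reads against 3.72, 4.19, 3.23 and 3.29 M (higher in 2 of 4 lines, exact permutation p = 0.875, adjusted p = 0.875). The part of these measures in the gene differences was not tested beyond the scalings given here and a score freed of its relation with detected genes, under which 41 genes were higher past the threshold.

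**Figure D4:**
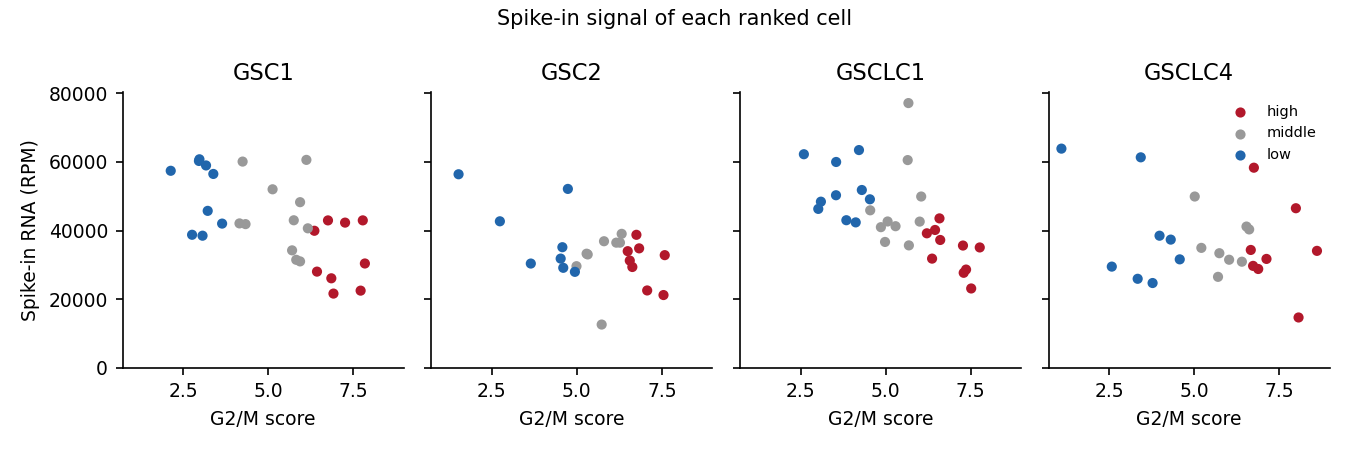
Spike-in RNA (RPM) of each ranked cell against its G2/M score, by culture line; red points are high, grey middle and blue low cells. High cells of GSC1 and GSCLC1 sit below most low cells, while in GSC2 and GSCLC4 the classes overlap widely.

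Markers of other testis and feeder cells ranged from absent to widely detected, with similar counts of cells in the 2 classes for most. Amh and Cyp17a1, of Sertoli and Leydig cells, were at 0 in all 70 cells, and Col3a1 and Myh11 had a signal in 1 low cell each. Few cells had Col1a2 (2 high and 2 low), Insl3 (2 and 3), Gata4 (5 and 1) or Star (8 and 7). Other markers gave a signal in many cells: Col1a1 in 27 high and 24 low cells, Sparc in 20 and 19, Sox9 in 18 and 23, Acta2 in 15 and 14, and Wt1 in 13 and 8. The highest median of these 5 was that of Col1a1, 4.12 RPM in high and 4.20 RPM in low cells. Vim, a marker of fibroblasts and feeder cells, was in 35 high and 35 low cells, with medians of 56.55 and 31.45 RPM. S100a6, in 33 high and 35 low cells, had medians of 50.6 and 50.7 RPM. None of 10 tested genes of fibroblasts and feeder cells passed, and their summed level had a lowest, median and highest value of 118.1, 633 and 1948 RPM in high and 28.9, 617 and 2183 RPM in low cells. The classes overlapped over nearly their whole range. Genes of Sertoli cells, with 3 of 15 above the filter, had median summed levels by line of 44.3, 0.229, 38.8 and 79.1 RPM in high and 10.97, 5.47, 1.03 and 86.1 RPM in low cells, higher in 2 of 4 lines. The part of such cells or RNA in the gene differences was not tested.

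The contrast was also compared between GSC and GSCLC lines. No gene had a different contrast past the threshold (0.00% of 10495, limma interaction of class and origin), with a smallest adjusted p of 0.975. At an unadjusted p under 0.05 there were 484 genes (4.61%), no more than the 5% that this cut gives by chance. With 2 lines of each origin this leaves moderate differences undetected, so it does not show that the lines act alike. The medians of the other G2/M genes given above were highest in GSCLC4 and lowest in GSCLC1, which are both GSCLC lines.

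**Figure D5:**
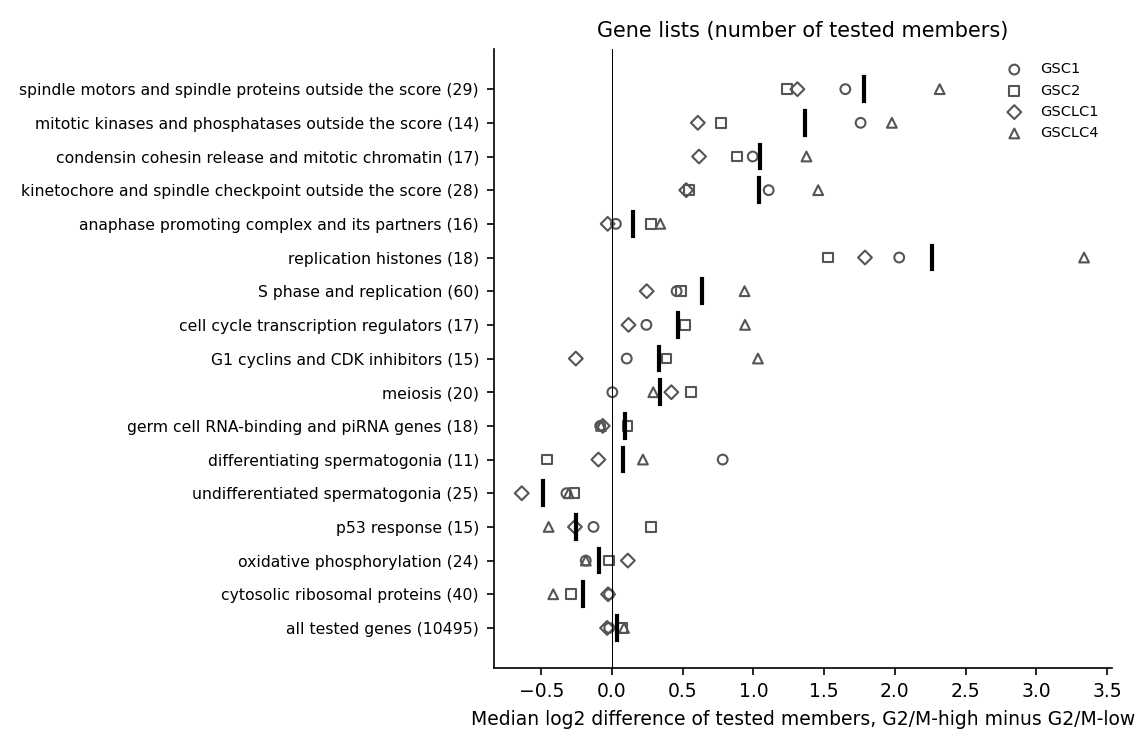
Median log2 difference, G2/M-high minus G2/M-low, over the tested members of each gene list (numbers in brackets); open symbols are single culture lines and black bars the median of the members' mean differences. The G2/M lists and the replication histones lie to the right of all tested genes in each line, with the anaphase-promoting complex nearest to them. Undifferentiated spermatogonia genes and ribosomal proteins lie to the left of 0 by RPM, the latter only slightly in GSC1 and GSCLC1. With spike-in scaling the ribosomal median was above 0 but below that of all tested genes.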

How the data were processed

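Each sample was 1 cell, and its title gave its culture line. The authors deposited a table of expression signal in RPM for 26218 genes and 92 spike-in RNAs; the gene rows alone are scaled, with the spike-ins on top. The submitters' processing notes name the build mm10 and the tools cutadapt (1.3), TopHat (1.4.1) and Cufflinks (2.2.0); the sources used here do not give the treatment of reads that map more than once. Whole reads (tolerance 0.05 read) made up 85.6% to 92.4% of the values in a cell, so no count model was fitted. Doublets were not called.

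The members and the gene lists were chosen with earlier results of these data known. A gene's value was the mean RPM over the cells of 1 class in 1 line, which gave 8 profiles. log2(mean + 1) was tested with limma 3.58.1 (R 4.3.3, mean-variance trend) with line as a block, since both classes of a line come from the same line. Genes with at least 5 RPM in at least 2 of 4 lines over all cells of the line were tested, without the 24 score genes (10495 genes). Differences are high minus low, with SE from limma and SD over 4 lines. Limma p-values rest on the spread between these 4 lines after it is drawn toward a trend over all tested genes, so they are not a gene's own spread alone. The fit was tested on simulated data.

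Named were the score genes; the 12 largest rises and falls past the threshold on no list with at least 20 RPM in the higher class, filled by size with genes of the same sign in 4 of 4 lines detected in at least 50% of that class; the 4 largest differences in each list (6 in G2/M, regulator and S phase lists); and a fixed set of cycle and germ cell genes. Others are marked as named after their values were seen, apart from markers of the classes. Positions are RefSeq GRCm38.p6, matched by Entrez identifier. Alternatives covered pseudocount, filter, scaling, variance trend, block, class rule, left-out lines and the runs of GSC1.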

Additional observations from a re-analysis of the deposited data

Results flagged for a closer look

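Dixon's criterion at 95% was applied to the 4 line differences of 82 named genes and of 3 cell measures, and to 24 groups of cells. In 5 genes and 1 group of cells a value lay far from the others; chance gives about 1 in 20. Ttk had a log2 difference of 0.32 in GSCLC1, Lcorl had 3.75 in GSCLC4, Tubb5 had 1.23 in GSC1, Dppa4 had -5.83 in GSC2 and Dnd1 had -1.67 in GSCLC1. The sixth was depth: the cell GSCLC1_MS094_173 had an estimated 4.97 M reads, far above the other low cells of GSCLC1.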

How the results depend on the processing

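The main setting gave 0.457% of tested genes higher (48 genes) and 2 genes lower past the threshold. These values were 1.096% and 6 with the mean of log2(RPM + 1) over cells, 0.124% and 0 with a pseudocount of 0.1, 0.619% and 5 with a pseudocount of 10, 0% and 0 without a filter, 0.95% and 5 with a filter at 20 RPM, 4.46% and 2 with spike-in scaling, 0.410% and 3 with median-of-ratios scaling, and 0% and 0 without the variance trend. With no replicate block they were 0.343% and 0, with each line split at the middle of the score 0.324% and 0, with the score adjusted for detected genes 0.391% and 1, and with the left-out GSC1 cell kept 0.362% and 2. With GSC1 cells of the lower run of serial numbers only they were 0.0191% and 0, and of the upper run only 0.0953% and 0. Leaving out 1 line gave 0.0762% (GSC1), 0.343% (GSC2), 0.181% (GSCLC1) and 0.0858% (GSCLC4) higher, and 0 to 1 lower. The 50 called genes kept their direction in each setting in which they were tested (49 with the filter at 20 RPM). The filters, the variance trend and the block leave each difference unchanged, so direction could not change in those settings. A gene with the same sign in 4 of 4 lines also cannot reverse when 1 line is left out. No paired analysis beyond the block of line was possible because the cells of different lines share no replicate numbers.

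Other G2/M genes higher past the threshold numbered 21, and 39 with the mean of logs, 7 with pseudocount 0.1, 57 with spike-in scaling, 1 and 6 with the lower and upper GSC1 run, and 0 without a filter or a trend; leaving out 1 line gave 5 to 16. Their median log2 of 1.19 was 1.77 with the mean of logs. S phase genes higher numbered 3, and 5 with the mean of logs, 1 with pseudocount 0.1, 18 with spike-in scaling and 0 without a filter, without a trend, with the split at the middle or with either GSC1 run; leaving out 1 line gave 0 to 3. For replication histones 1 was higher, and 9 with the mean of logs or spike-in scaling and 0 with pseudocount 0.1, no filter, no trend, no replicate block, the split at the middle, the adjusted score or either GSC1 run, and 0 for each left-out line. Spermatogonia genes, with none called, had 2 higher with spike-in scaling and 1 lower with pseudocount 10, the filter at 20 RPM or median-of-ratios scaling. Ribosomal proteins had 1 lower with the mean of logs, with the left-out cell kept and without GSC1.

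Among 82 named genes, 17 of 1470 results under the alternatives had the opposite sign, all for genes that did not pass the test. Ccnd1 had -0.11 without GSCLC4. Ccnd3 had 0.34 with the mean of logs, 0.081 with spike-in scaling and 0.15 without GSCLC1. Cdkn1a had 1.10 with the mean of logs, 0.25 with spike-in scaling, 0.072 with the split at the middle, 0.0024 with the lower GSC1 run and 0.12 without GSCLC4. Ret had 0.35 with the mean of logs and 0.30 with spike-in scaling. Id4 had -0.0938 with the lower run and -0.27 without GSC2, Kit -0.15 with the split at the middle and Dazl -0.010 without GSCLC1. With spike-in scaling Ddx4 had 0.17 and Rplp0 0.12. The cause of these changes was not tested. Depth limits single cells: a gene at 0 in a cell of this depth may still be expressed.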
